A study of Mus musculus with 21 samples.

Results

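The keratin genes outside the basal pair Krt5 and Krt14 were described in 21 mouse mammary tumors. The members were the genes of the deposited table whose symbol is Krt followed by a number, without Krt5 and Krt14. They came to 34 of the 23203 genes of that table. They comprised 6 simple, 15 stratified and 11 hair keratins and 2 others, the short type I relative Krt222 and the pseudogene Krt8-ps.

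All tumors came from mice carrying FloxNeoNeuNT, an activated NeuNT cDNA at the ErbB2 locus behind a floxed stop, and MMTV-CreNLST, which expresses Cre from the mouse mammary tumor virus promoter. The RhoC cohort also carried R26(RhoC/+), a mouse RhoC cDNA at Rosa26 that Cre switches on together with eGFP. It held 12 tumors (R-1, R-2, R-6, R-7, R-10, R-12 to R-16, R-18 and R-21), and the control cohort held 9 (N-1, N-3, N-4, N-6 to N-9, N-15 and N-17). Of the controls, 7 carried Gata4(loxP/+) and 2, N-15 and N-17, did not, while none of the 12 RhoC tumors carried that allele. R-6 and R-7 came from mouse N9255 and R-13 to R-16 from mouse P497, so that the 12 RhoC tumors came from 8 mice, if R-18, whose label names no mouse, came from a mouse of its own. The mice were female virgins, and the labels give no age at which a tumor was taken. Each library is the RNA of a whole tumor, in which fewer cells of a type and less RNA per cell cannot be told apart.

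The study's supplementary table of tumors, not the sample labels, lists histology by tumor number. R-6, R-13 and R-14 are listed there as squamous cell carcinoma (SCC), and R-7, R-10, R-12, R-16 and N-4 as complex adenocarcinoma (CAC). N-3, N-6, N-8 and N-15 are poorly differentiated adenocarcinoma (PDA). N-7, N-9 and R-1 are solid nodular carcinoma (SNC), and N-1 is a spindle cell tumor (SCT). R-2 and R-15 are listed as mixed or uncertain, and no histology was taken for N-17, R-18 and R-21. The label of R-21 names mouse Q3738, which that table gives for another tumor of the RhoC cohort, so that the mouse of R-21 is uncertain. The entry for N-8 holds the codes of both PDA and SNC.

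Depth ran from 47309780 to 100741339 gene counts per tumor (median 62484232). Levels within a gene are given as CPM, read counts divided by the library total after trimmed-mean (TMM) scaling, and levels of different genes are set against each other as the deposited FPKM, which divides by gene length. Rhoc itself ran from 26 to 172 CPM in the controls and from 22.8 to 148 CPM in the RhoC tumors, so that it did not separate the cohorts at the level of tumor RNA (log2 fold change or log2 ratio, RhoC over control, 0.19, SE 0.34, adjusted p = 0.774 by edgeR's quasi-likelihood test with Benjamini-Hochberg adjustment). The epithelial surface marker Epcam (202 to 960 CPM) and the epithelial cadherin Cdh1 (482 to 1205 CPM) were present in every tumor, the spindle cell tumor included.

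Keratins are the intermediate filament proteins of epithelial cells, and each filament is built from pairs of 1 acidic type I chain and 1 basic type II chain. Simple epithelia, such as the luminal layer of the mammary duct, make Krt8 and Krt18 with Krt7 and Krt19. Stratified epithelia make Krt5 and Krt14 in the basal layer, Krt1 and Krt10 above it in skin, Krt4 and Krt13 in internal lining, and Krt6a, Krt6b, Krt16 and Krt17 in appendages and on wounding, while hair follicles make their own set.

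The members lie in the keratin clusters of the mouse genome (GRCm38.p6). Of 17 type I genes, 16 lie on chromosome 11 between 99232761 and 100269871, and Krt18 lies on chromosome 15 from 102028180 to 102032027. All 16 type II genes lie on chromosome 15 between 101347444 and 102004482, and Krt8-ps lies on chromosome 7. The type I genes of chromosome 11 lie 0.795 to 1.825 Mb from Erbb2, the locus that carries NeuNT. The study counted more copies of that locus on average in its controls than with RhoC, a difference it did not call significant. The part of copy number in the keratin levels was not tested.

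Several keratins are near copies of each other, which limits what the read counts of each can tell, since reads that matched more than 1 gene were discarded in the counting. Of the 100-base stretches of its transcripts, Krt6a shared 42.9% with another gene, most with Krt6b, and Krt6b shared 30.6%. The coding sequences of Krt6a (1659 bases) and Krt6b (1662 bases) differed at 37 bases and by a gap of 3 bases, an identity of 97.8%, with an identical run of up to 280 bases. A stretch of 90 bases in exon 4 holds 12 of the differing bases, shown in capitals from GRCm38 on the minus strand of chromosome 15 because reads over such bases separate the genes.
Krt6a, chr15:101692484-101692573: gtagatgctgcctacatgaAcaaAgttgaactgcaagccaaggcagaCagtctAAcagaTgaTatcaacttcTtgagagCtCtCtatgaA
Krt6b, chr15:101678303-101678392: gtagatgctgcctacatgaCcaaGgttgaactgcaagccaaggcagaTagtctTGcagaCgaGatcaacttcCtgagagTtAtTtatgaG
Krt8-ps shared 37.1% of its 100-base stretches, most with Krt8, and Krt8 shared 17.1%. Krt16 shared 24.3%, most with Gm11597. For Krt7, Krt10, Krt17, Krt18 and Krt19 the share was 0.

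A pair of members whose levels in single tumors stood far above the rest, Krt10 and Krt27, are shown by their start. The 250 bases before each start site come from the RefSeq annotation of GRCm38.p6, minus strand of chromosome 11, with the TATA box letters TATAAA and the CCAAT box letters in capitals (on the opposite strand the latter read ATTGG).
Krt10, chr11:99389365-99389614: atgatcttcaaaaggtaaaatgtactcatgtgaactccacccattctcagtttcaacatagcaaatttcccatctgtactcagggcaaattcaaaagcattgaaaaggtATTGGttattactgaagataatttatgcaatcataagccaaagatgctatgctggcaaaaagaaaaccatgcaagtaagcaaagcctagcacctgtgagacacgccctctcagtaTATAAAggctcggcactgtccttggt
Krt27, chr11:99351119-99351368: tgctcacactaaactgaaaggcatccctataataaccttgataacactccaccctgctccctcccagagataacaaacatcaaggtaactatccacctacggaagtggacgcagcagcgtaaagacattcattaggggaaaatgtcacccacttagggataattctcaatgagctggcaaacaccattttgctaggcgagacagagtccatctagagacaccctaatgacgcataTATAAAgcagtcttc
In Krt10 TATAAA began at base -26 and the reversed CCAAT at -141, and in Krt27 TATAAA began at -15. Promoter windows were found for 21 members (22 windows). TATAAA, searched on both strands of these 250 bases, lay in 10 of the 22, against 12.4% of all 32851 windows, and the GC box letters GGGCGG lay in 2 of the 22, against 32.7%. CCAAT lay in 7 of the 22, against 33.8%, and the AP-1 letters TGANTCA in 2 of the 22, against 6.75%. A match of letters is a description and not a bound site.

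Per length, the simple keratins led in most tumors. By the median of the deposited FPKM over the 21 tumors, Krt18 (188) and Krt8 (142) came first, followed by Krt19 (54.5), Krt17 (30.3), Krt7 (27.7), Krt23 (5.54), Krt79 (3.54) and Krt80 (1.30). Of the summed FPKM of all 34 members, simple keratins made up a median of 87.6%, with the highest share, 99.4%, in R-18. The stratified share had a median of 11.4% and was highest in R-6 (93.1%), N-1 (72.3%), R-13 (68.9%), R-14 (52.6%) and R-12 (47.2%). The hair share was highest in N-9, at 30.5%. As shares of keratin reads, not per length, the medians were 86.3% for simple and 12.7% for stratified keratins, and the hair share in N-9 was 26.3%. The summed keratin level ran from 410 CPM in R-21 to 13217 CPM in R-6, and the number of members over 1 CPM from 6 in R-21 to 22 in N-1.

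**Figure D1:**
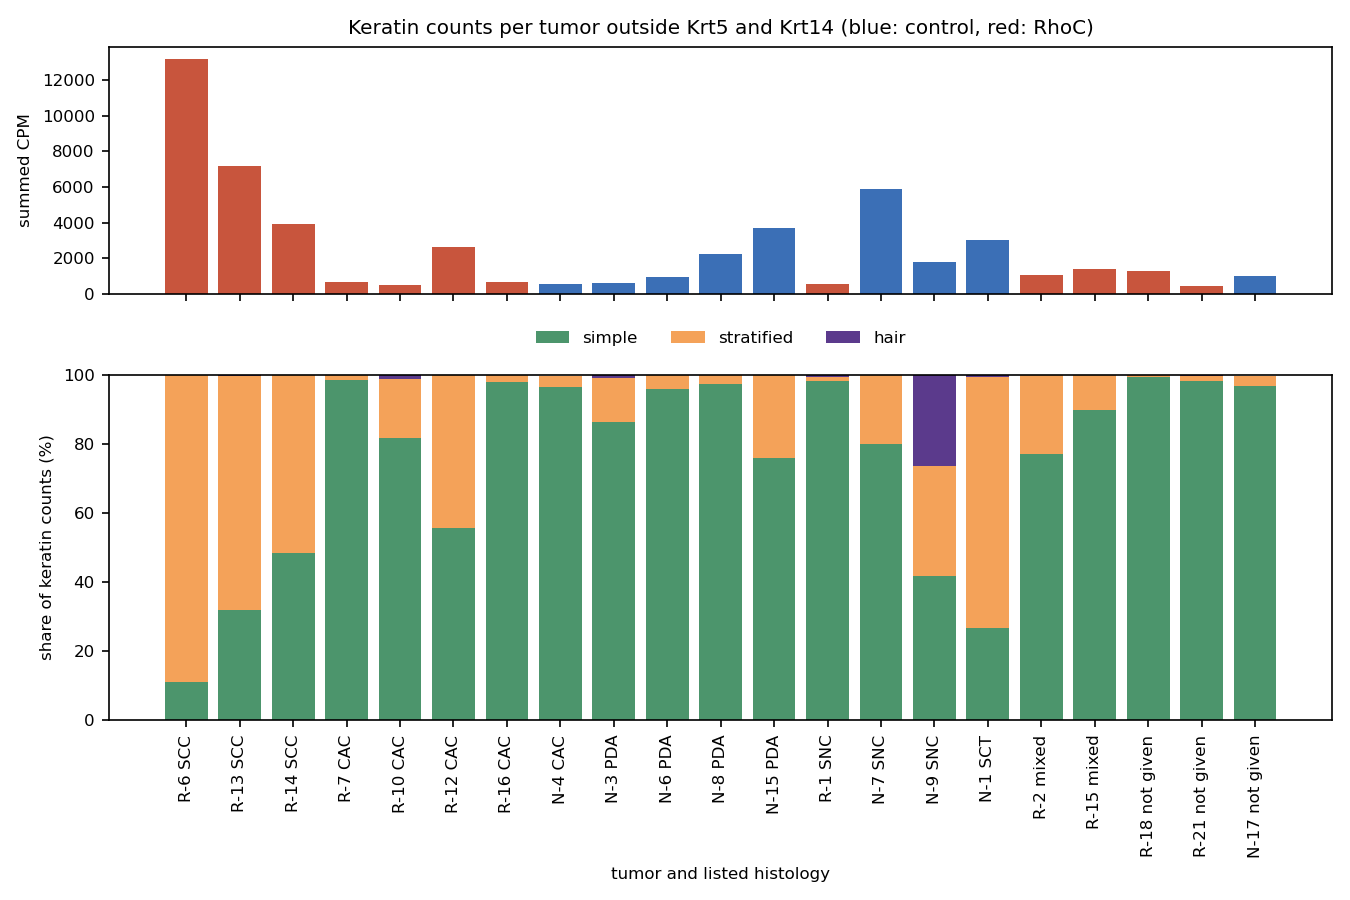
Bars in the upper plot give the summed CPM of the 34 keratins in each of the 21 tumors (blue: control, red: RhoC), and stacked bars in the lower plot give the percentage from simple, stratified and hair keratins, with tumors ordered by listed histology. The shares are of reads and not per length. The stratified share of reads was 88.8% in R-6 and 72.5% in N-1 against a median of 12.7%, and the hair share of 26.3% in N-9 stood alone.

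Krt8 and Krt18, the type II and type I chains of simple epithelium, were present in every tumor. Over all 21 tumors they varied less than the other members, by 10.1-fold and 10.3-fold from lowest to highest. Among the controls alone Krt7 varied less, by 4.38-fold against 8.68-fold for Krt8 and 6.28-fold for Krt18. Krt8 ran in the controls from 179 CPM (N-3) with a median of 229.7 CPM to 1554 CPM (N-15), and in the RhoC tumors from 155 CPM (R-10) with a median of 289.95 CPM to 1014 CPM (R-13). Krt18 ran in the controls from 152 CPM (N-4) with a median of 276 CPM to 953 CPM (N-15), and in the RhoC tumors from 92.2 CPM (R-6) with a median of 256 CPM to 629 CPM (R-13). The cohorts overlapped for both genes, and N-15 and R-13 were the highest of their cohorts for both. Between the cohorts the log2 ratio (RhoC over control) was -0.25 (SE 0.41, adjusted p = 0.753) for Krt8 and -0.30 (SE 0.36, adjusted p = 0.651) for Krt18 by edgeR's quasi-likelihood test. Both signs turned when N-15 was left out, to 0.33 and 0.072, and in the comparison with the Gata4(loxP/+) controls alone. Per length, the ratio of Krt8 to Krt18 FPKM stayed between 0.523 (N-9) and 1.36 (R-6). Krt8-ps, which shares sequence with Krt8, was highest where Krt8 was, at 3.87 CPM in N-15.

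Krt7, a type II chain of ducts and glands, and Krt19, the short type I chain that lacks most of the tail, moved differently. Krt7 ran in the controls from 72.4 CPM (N-7) with a median of 159.8 CPM to 317 CPM (N-8), and in the RhoC tumors from 37.7 CPM (R-18) with a median of 81.8 CPM to 1032 CPM (R-6). R-6, R-12 (622 CPM) and R-13 (456 CPM) exceeded every control, while 7 of the 12 RhoC tumors lay below the control median. The log2 ratio between cohorts was 0.55 (SE 0.56, adjusted p = 0.590, edgeR), and it was -0.26 without the 3 tumors listed as SCC.

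Krt19 had the widest range of the simple keratins with high levels. It ran in the controls from 1.85 CPM (N-3) with a median of 103 CPM to 4079 CPM (N-7), and in the RhoC tumors from 0.0739 CPM (R-21) with a median of 120.4 CPM to 741 CPM (R-14). Krt19 was under 10 CPM in N-3, N-4, N-6, N-15, R-7 and R-21, tumors in which Krt8 was at 155 CPM or more. The cohorts overlapped, with a log2 ratio of -1.66 (SE 1.23, adjusted p = 0.447, edgeR) that became 0.18 without N-7.

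Krt23, a type I keratin of glandular epithelia, ran in the controls from 0.614 CPM (N-6) with a median of 27.6 CPM to 138 CPM (N-7). In the RhoC tumors it ran from 0.37 CPM (R-7) with a median of 5.64 CPM to 64.6 CPM (R-10). The cohorts overlapped, although 8 of the 9 controls lay above the RhoC median, and the log2 ratio of -1.51 (SE 0.79, adjusted p = 0.280, edgeR) did not pass the threshold of 0.05. Krt20, the type I keratin of gut and urinary lining, was at 11.7 CPM in R-2, 2.95 CPM in N-7 and under 1 CPM in the other tumors.

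**Figure D2:**
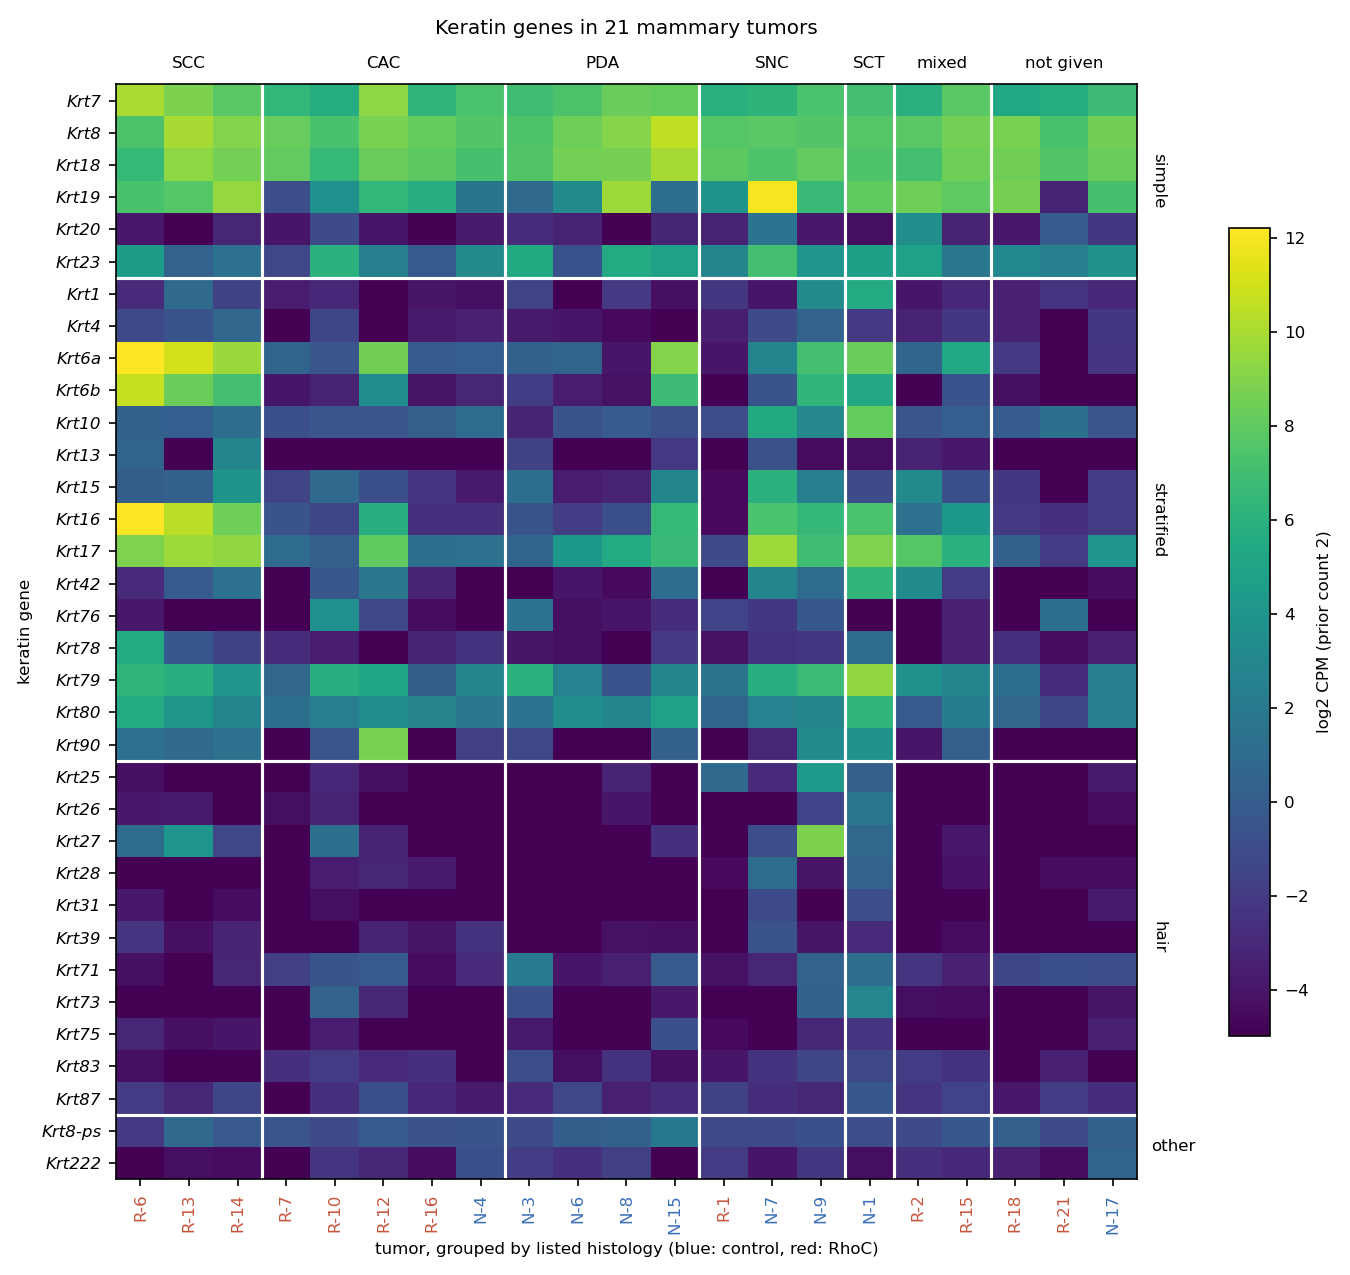
Color gives log2 CPM (prior count 2) of each keratin (rows, by class) in each tumor (columns, by listed histology, with labels in blue for control and red for RhoC). Krt8 and Krt18 were bright in every column, while high stratified and hair keratins lay in few columns, such as R-6, R-13, R-14, R-12, N-1 and N-9.

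The keratins of wounded and appendage epithelium, Krt6a and Krt6b (type II) with Krt16 and Krt17 (type I), were high in the squamous tumors and spanned wide ranges. Krt6a was at 4609.9 CPM in R-6, 2235 CPM in R-13 and 794 CPM in R-14, the 3 SCC tumors. It was at 1.48 CPM in R-7, 0.71 CPM in R-10, 363 CPM in R-12 and 0.888 CPM in R-16, the CAC tumors of the RhoC cohort. Each SCC tumor exceeded each CAC tumor, and R-12 stood apart from the other CAC tumors.

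Krt16, the usual partner of Krt6a, was also highest in R-6, R-13 and R-14, in that order. It was at 4774 CPM in R-6, 1389 CPM in R-13 and 352 CPM in R-14, against 0.638 CPM in R-7, 0.345 CPM in R-10, 55.98 CPM in R-12 and 0.131 CPM in R-16. The groups did not overlap. Krt6b was at 1707, 329 and 144 CPM in R-6, R-13 and R-14, respectively, and at 0.0336, 0.0691, 9.99 and 0.0291 CPM in R-7, R-10, R-12 and R-16. Krt17 was at 472, 849 and 665 CPM in the SCC tumors in that order and at 2.05, 1.14, 257 and 2.62 CPM in the CAC tumors in that order, again without overlap and again with R-12 the highest CAC tumor.

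**Figure D3:**
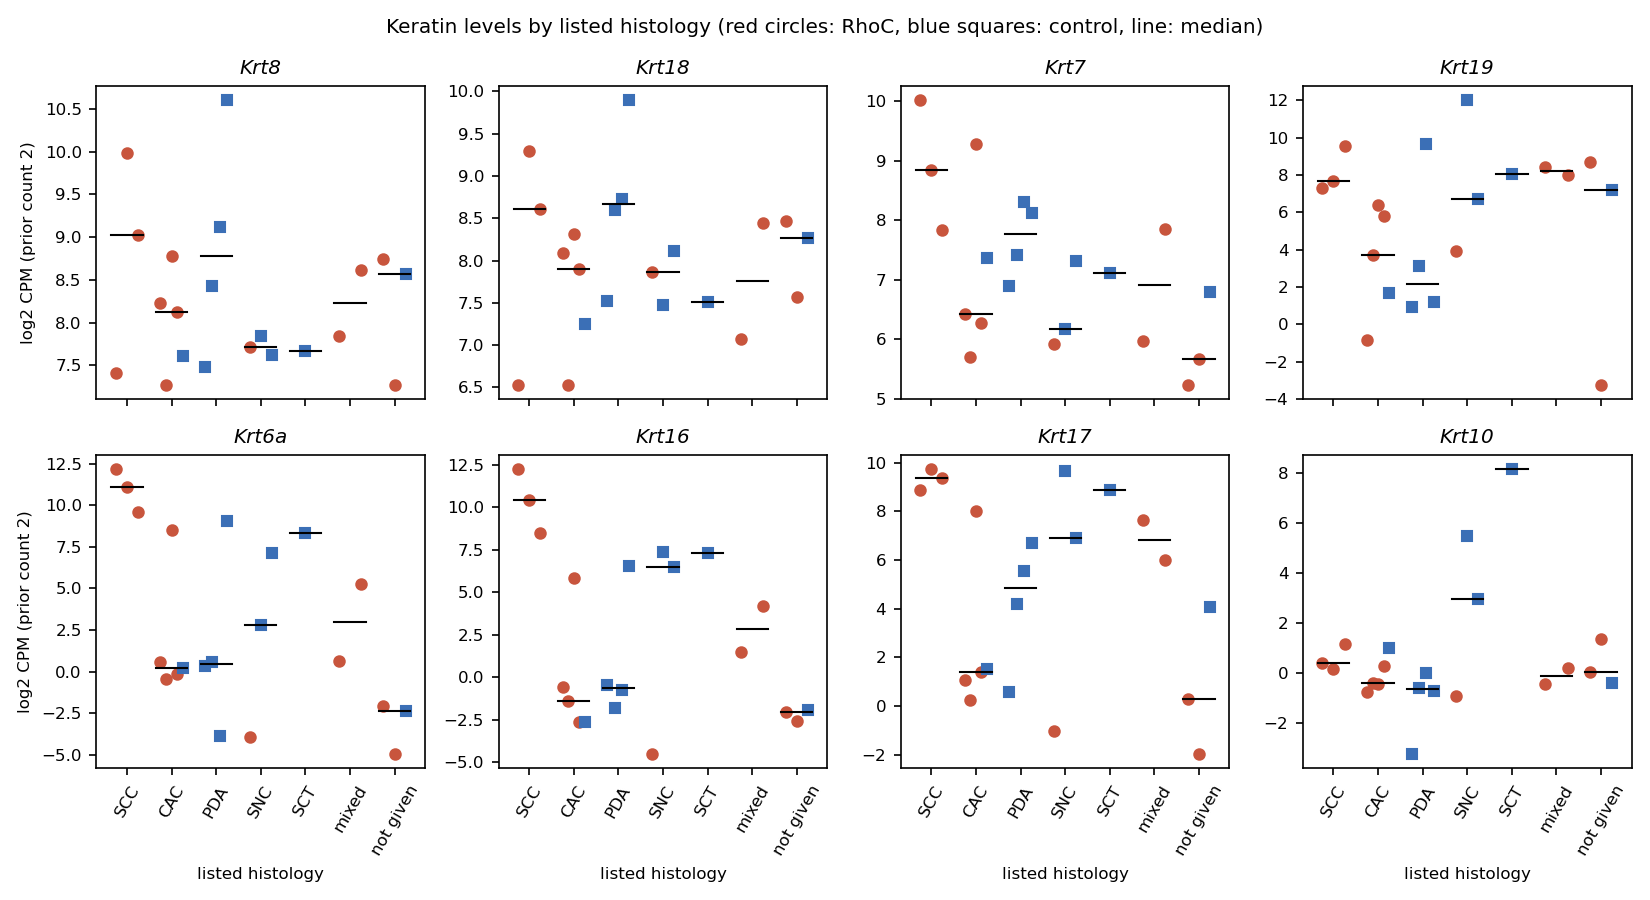
Points give log2 CPM (prior count 2) of 8 keratins in single tumors by listed histology (red circles: RhoC, blue squares: control), with a line at the median of each histology over both cohorts. R-12 is the CAC tumor at 363 CPM of Krt6a and 257 CPM of Krt17, far above the other CAC tumors, and the spindle cell tumor N-1 is the highest for Krt10.

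In the comparison of SCC with CAC within the RhoC cohort, 21 of the 34 members passed the filter on low counts. None of the 21 passed an adjusted p of 0.05 in edgeR's quasi-likelihood test, where 1.37% of the 19249 genes tested did, and DESeq2, which gave an adjusted p for 23 of the 34, called 5 (Krt1, Krt6b, Krt16, Krt19 and Krt83), where it called 9.47% of genes. At an unadjusted p under 0.05 edgeR counted 7 members as higher in SCC (Krt4, Krt6b, Krt15, Krt16, Krt19, Krt78 and Krt80), against 9.26% of all genes, and 1 as lower (Krt71), against 10.1%. Of the 21, 7 lay without overlap above the CAC tumors (Krt4, Krt6a, Krt6b, Krt16, Krt17, Krt19 and Krt78), against 9.35% of all genes. Krt4, Krt6b and Krt78 of both counts, and Krt27, passed the filter only through the SCC tumors, and Krt71 only through the CAC tumors, which favoured the direction each had and makes the counts and medians a description only. The median log2 ratio (SCC over CAC) was 3.12 over the 12 stratified keratins tested and 0.94 over the 5 simple keratins, where the median over all genes was -0.06.

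Krt78, a type II keratin of stratified lining, was at 47.0 CPM in R-6, 0.773 CPM in R-13 and 0.28 CPM in R-14 against at most 0.118 CPM in the CAC tumors. It had 0 to 7 counts in the CAC tumors, and Krt6b was over 4 counts in R-12 alone of them. The log2 ratio of Krt78 was 7.96 (SE 1.94, adjusted p = 0.0880, edgeR), and it was 3.05 without R-6. The log2 ratio was 8.16 (SE 2.32, adjusted p = 0.122) for Krt6b, 7.24 (SE 2.31, adjusted p = 0.153) for Krt16, 4.79 (SE 2.22, adjusted p = 0.287) for Krt6a and 3.33 (SE 1.79, adjusted p = 0.350) for Krt17 by edgeR.

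Leaving out R-12 changed the calls of other members. Without it, edgeR called 5 of the 19 members tested (Krt6a, Krt6b, Krt7, Krt16 and Krt17). The log2 ratios were 11.24 for Krt6a, 13.94 for Krt6b, 12.48 for Krt16, 8.39 for Krt17 and 2.97 for Krt7. The adjusted p-values in that order were 0.00916, 0.0109, 0.0140, 0.00618 and 0.0410 (edgeR). Krt6b, at 2 to 4 counts in R-7, R-10 and R-16, and Krt16, at 9 to 38, passed this filter only through the SCC tumors. That favoured the direction both had. Over all genes the calls then rose from 263 to 827, or 4.40% of the genes tested. Leaving out R-6, R-7, R-10, R-13, R-14 or R-16 brought them to 24, 8, 59, 7, 330 and 5, and no member was called. R-12 had the highest basal keratins of the CAC tumors too, with Krt5 at 1608 CPM and Krt14 at 2083 CPM, against 6276 and 9516 CPM in R-6, 4853 and 6273 CPM in R-13 and 2875 and 1999 CPM in R-14. With N-4 of the control cohort added to the CAC tumors, 1 member of 21 was called, Krt78 (adjusted p = 0.0426, edgeR), with 2.92% of all genes.

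The mice with both tumor types gave the contrast within 1 animal, a ratio of single tumors with no test. In mouse N9255 the SCC tumor R-6 exceeded the CAC tumor R-7 by 7480-fold for Krt16, 3120-fold for Krt6a, 290-fold for Krt19, 230-fold for Krt17, 60.2-fold for Krt23, 48.6-fold for Krt79, 18-fold for Krt80 and 12-fold for Krt7. Krt8 and Krt18 were lower in R-6, at 0.569 and 0.338 times their level in R-7. In mouse P497 the mean of R-13 and R-14 exceeded the CAC tumor R-16 by 1710-fold for Krt6a, 289-fold for Krt17, 51.2-fold for Krt15, 34.4-fold for Krt79, 8.49-fold for Krt19, 4.43-fold for Krt7, 2.74-fold for Krt8 and 2.13-fold for Krt18. Of the members with over 10 counts on both sides, 10 of 12 were higher in SCC in N9255 and 12 of 12 in P497. The share of all genes higher in SCC within these mice was not counted, so these counts are a description only. Members left out by the rule went both ways, such as Krt6b (higher in SCC) and Krt83 (lower) in both mice. With the mice N9255 and P497 as a block, an alternative chosen after seeing the data, edgeR called 6 of 22 members (Krt6a, Krt6b, Krt16, Krt17, Krt79 and Krt90), with 3.21% of all genes. Of the 6, Krt6b, Krt16 and Krt90 passed the filter only through the SCC tumors, with at most 2, 38 and 0 counts in R-7 and R-16. With R-10 and R-12 in the comparison, and without the block, the log2 ratio of Krt90 was -5.46.

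The other stratified keratins were each high in 1 or a few tumors. Krt79, a type II keratin of the sebaceous duct, was at 699 CPM in N-1, 107 CPM in N-9, 77.5 CPM in R-6 and 64.3 CPM in N-3, with a median of 7.66 CPM in the controls and 10.9 CPM in the RhoC tumors. Krt15, a type I keratin of basal cells and the hair bulge, was at 65.8 CPM in N-7, 15.2 CPM in R-14, 8.56 CPM in R-2, 7.62 CPM in N-15 and 5.51 CPM in N-9. Krt80, a type II keratin of differentiating epithelia, was at 80.5 CPM in N-1 and 46.9 CPM in R-6 and was above 0.3 CPM in every tumor.

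Krt90, a type II keratin, was at 429 CPM in R-12, 14.7 CPM in N-1 and 9.71 CPM in N-9 and under 3 CPM in the other tumors. Krt42, a type I keratin, was at 77.3 CPM in N-1, 9.01 CPM in R-2 and 7.63 CPM in N-7. Krt76, a type II keratin of the palate, was at 12.6 CPM in R-10, and Krt13, the type I chain of internal lining, was at 7.32 CPM in R-14 and 1.44 CPM in R-6. Krt4, the type II partner of Krt13, stayed under 2 CPM in all tumors. N-1 was thus the highest tumor for Krt42, Krt79 and Krt80, R-12 for Krt90, R-10 for Krt76 and R-14 for Krt13.

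Krt1 and Krt10, the paired chains of the upper layers of skin, were high in N-1, the tumor listed as spindle cell. The 9 mesenchymal markers summed to 910 CPM in N-1, against a median of 3811 CPM over the 21 tumors. Krt10 was at 285 CPM in N-1, 44.6 CPM in N-7, 7.72 CPM in N-9 and 1.97 CPM in N-4, and between 0.0724 and 0.96 CPM in the other controls. In the RhoC tumors it ran from 0.488 CPM (R-1) with a median of 1.03 CPM to 2.54 CPM (R-21). The cohorts overlapped, and the control median of 0.96 CPM lay below the RhoC median, although the control mean was 37.99 ± 93.6 CPM (SD, n = 9) against 1.13 ± 0.639 CPM (SD, n = 12). Krt1 was at 45.6 CPM in N-1, 9.18 CPM in N-9 and 1.92 CPM in R-13, and it was under 0.4 CPM in the other tumors.

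In the comparison of the RhoC with the control cohort, 19 of the 34 members passed the filter. None of them passed an adjusted p of 0.05 in edgeR, where 0.223% of the 19315 genes tested did, and DESeq2, which gave an adjusted p for 33 of the 34, called 2 (Krt1 and Krt10), where it called 5.94% of genes. At an unadjusted p under 0.05 edgeR counted 3 as lower in the RhoC tumors (Krt10, Krt71 and Krt79), against 9.93% of all genes, and 0 as higher, against 10.5%. No member separated the cohorts without overlap, and 0.0155% of genes did. The median log2 ratio was -0.30 over the members and -0.01 over all genes, with -0.30 over the 5 simple and 0.08 over the 11 stratified keratins tested. Of the stratified keratins, Krt6a and Krt16 passed the filter only through the RhoC tumors, so that the medians are a description only.

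Krt10 came nearest to the threshold, with a log2 ratio of -5.07 (SE 1.11, adjusted p = 0.0536, edgeR). Without N-1 the value was -2.66 with an adjusted p of 0.128, while without N-3, N-6, N-15 or N-17, in which Krt10 was under 1 CPM, the adjusted p lay under the threshold at 0.0372, 0.0422, 0.0306 and 0.0394. With the Gata4(loxP/+) controls alone the adjusted p for Krt10 was 0.0253 (edgeR), in a fit that called 438 genes, or 2.22%, against 43 with all controls. The antisense gene Gm11940 overlaps Krt10, and how strand was treated in counting is not given in the sources used here.

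The log2 ratios of the squamous keratins between cohorts were 3.28 (SE 1.95, adjusted p = 0.341) for Krt16, 2.83 (SE 2.08, adjusted p = 0.447) for Krt6b, 2.58 (SE 1.91, adjusted p = 0.447) for Krt6a and 0.25 (SE 1.27, adjusted p = 0.928) for Krt17 by edgeR. Krt16 and Krt6a reached the filter's minimum in 8 of the 9 controls, where 9 tumors were needed. Both therefore passed only through the RhoC tumors, which favoured a higher level there. Without the 3 SCC tumors the signs for Krt16, Krt6a and Krt17 turned, to -2.70, -1.31 and -1.58, and Krt6b no longer passed the filter. Controls with high levels were N-15 (Krt6a 530.3 CPM, Krt16 93.5 CPM), N-1 (Krt6a 327 CPM, Krt16 160.5 CPM) and N-9 (Krt6a 139 CPM, Krt16 88.4 CPM), while N-7 had Krt16 at 164 CPM with Krt6a at 6.90 CPM. The level was under 2 CPM for Krt6a in 5 of the 9 controls and 7 of the 12 RhoC tumors. Krt79 had a log2 ratio of -2.23 (SE 1.05, adjusted p = 0.235, edgeR), which was -0.49 without N-1. Krt71 had -2.03 (SE 0.86, adjusted p = 0.194, edgeR) at levels of at most 4.19 CPM. Krt15 had -1.89 (SE 1.24, adjusted p = 0.393, edgeR), which was 0.27 without N-7.

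**Figure D4:**
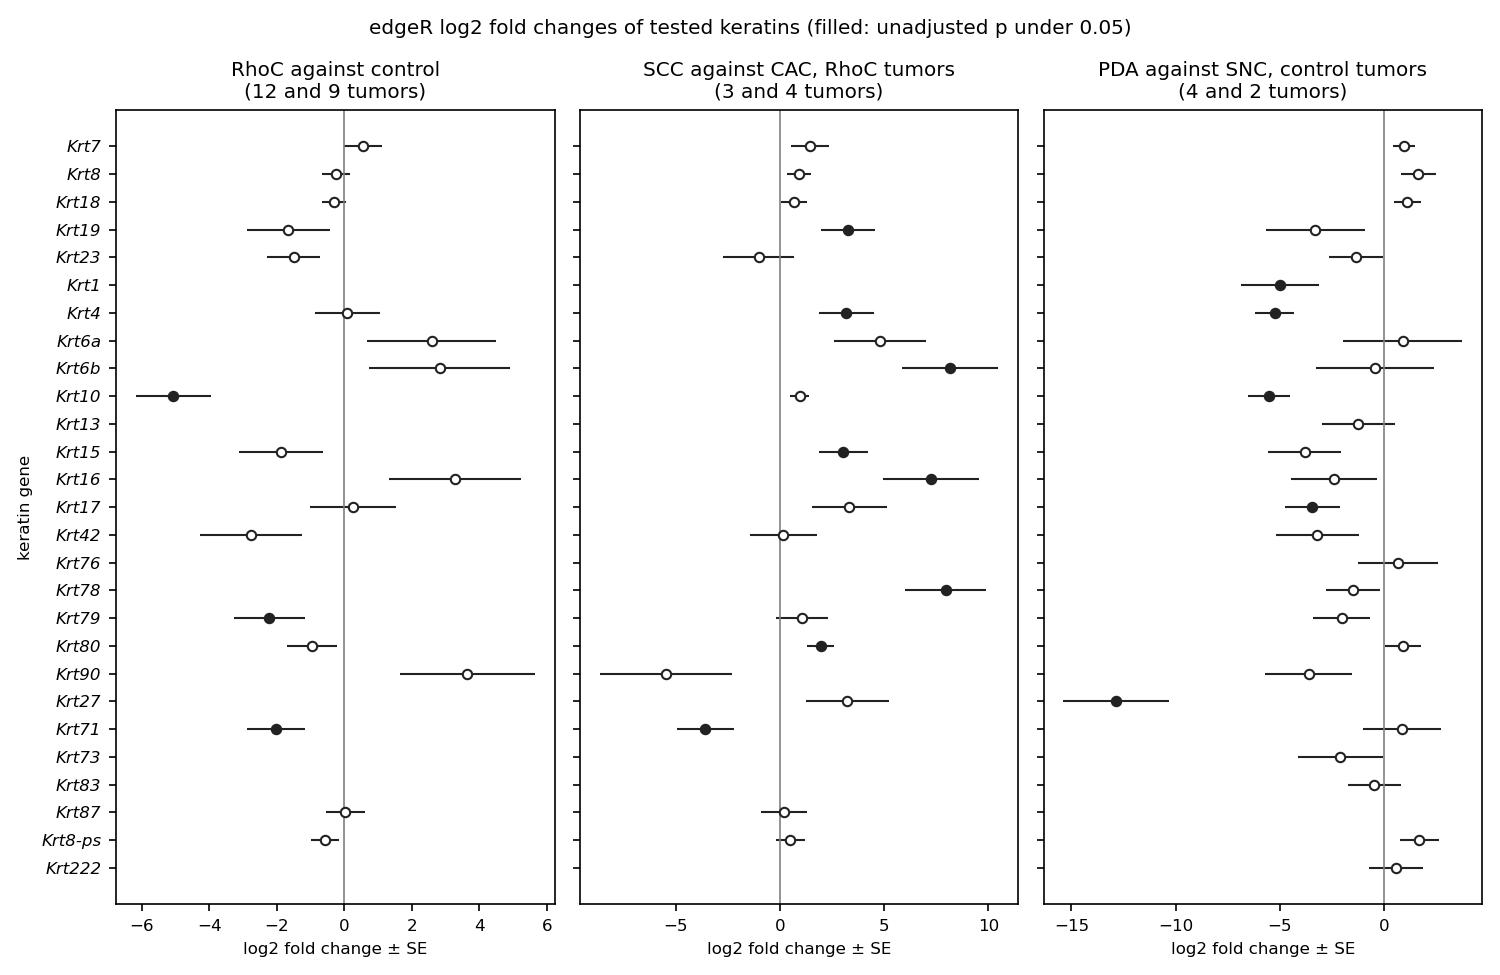
Points give the log2 ratio of each keratin tested by edgeR with bars of 1 SE, for RhoC against control, SCC against CAC and PDA against SNC, each plot with its own scale; filled points had an unadjusted p under 0.05. The filled points number 3, 8 and 5, and 0 members passed an adjusted p of 0.05.

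Among the controls, PDA (N-3, N-6, N-8 and N-15) was compared with SNC (N-7 and N-9), a comparison of 4 with 2 tumors that called 0 members without N-8 as well. None of the 26 members tested passed an adjusted p of 0.05 in edgeR, where 0.00965% of the 20725 genes tested did, and DESeq2, which gave an adjusted p for 25 of the 34, called 3 (Krt4, Krt10 and Krt27), where it called 3.48% of genes. At an unadjusted p under 0.05 edgeR counted 5 as lower in PDA (Krt1, Krt4, Krt10, Krt17 and Krt27), against 4.68% of all genes, and 0 as higher, against 6.34%. Krt4, at 0 to 3 counts in the PDA tumors, and Krt27, at 0 to 7, could pass the filter only through the SNC tumors, which fixed their direction. Of the 26, 4 lay without overlap below SNC (Krt4, Krt10, Krt17 and Krt27), against 12.2% of all genes. The median log2 ratio (PDA over SNC) was -1.43 over the members and -2.40 over the 15 stratified keratins, where that of all genes was 0.07. Krt42, Krt78 and Krt83 also passed the filter only through the SNC tumors, and Krt71 and Krt222 only through the PDA tumors. This favoured the direction each had and makes the counts and medians a description only.

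Krt10 was at 0.0724, 0.631, 0.96 and 0.567 CPM in N-3, N-6, N-8 and N-15 and at 44.6 and 7.72 CPM in N-7 and N-9. Krt17 was at 1.45, 18.1, 47.1 and 103 CPM in the PDA tumors in that order and at 815 and 121 CPM in the SNC tumors. The groups did not overlap for either gene. The log2 ratio was -5.53 (SE 1.01, adjusted p = 0.209) for Krt10, -5.25 (SE 0.94, adjusted p = 0.206) for Krt4, -5.01 (SE 1.87, adjusted p = 0.409) for Krt1 and -3.45 (SE 1.31, adjusted p = 0.413) for Krt17 by edgeR. For Krt1 the value was 1.996 without N-9, and for Krt17 it was -1.50 without N-7.

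Other cell types moved with this contrast. The summed level of the 5 leukocyte markers in the table was 274 to 428 CPM in PDA and 87.4 to 138 CPM in SNC, and all 5 had an unadjusted p under 0.05 as higher in PDA, against 6.34% of all genes. The 9 mesenchymal markers summed to 2750 to 6601 CPM in PDA and 412 to 1759 CPM in SNC, with 3 of 9 higher at an unadjusted p under 0.05. Their part in the keratin result was not tested.

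The hair keratins were near 0 in most tumors, and the exceptions were single tumors. Krt27, a type I chain of the inner root sheath, was at 450.3 CPM in N-9, 16.5 CPM in R-13, 2.59 CPM in R-10, 2.09 CPM in R-6 and 1.78 CPM in N-1, and it was at or under 0.5 CPM in the other tumors. Krt25, a neighbouring type I chain of the same sheath, was at 19.4 CPM in N-9, 1.81 CPM in R-1 and 1.14 CPM in N-1, and it was at or under 0.1 CPM elsewhere. Krt26 and Krt28, further type I chains of that sheath, were at 0.311 and 0.0271 CPM in N-9.

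N-9 therefore held Krt27 and Krt25 without the other chains at similar levels. Krt71 and Krt73, the type II chains of the sheath, were at 1.35 and 1.29 CPM in N-9. In the PDA against SNC comparison Krt27 had a log2 ratio of -12.85 (SE 2.53, adjusted p = 0.227, edgeR), which was -3.90 without N-9.

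The direct neighbours of Krt27 on chromosome 11, Krt26 and Krt28, were at under 1 CPM in N-9. Tns4, a tensin of focal adhesions, was at 3230 CPM in N-9 against a median of 219 CPM in the other 20 tumors, and Smarce1, a chromatin remodelling subunit, at 1992 CPM against a median of 82.0 CPM. Igfbp4, further along, was at 43.4 CPM against a median of 221 CPM. The highest level among the other tumors was 8377 CPM for Tns4 and 2104 CPM for Smarce1.

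N-1 held small amounts of several hair keratins, with Krt73 at 7.84 CPM, Krt26 at 3.47 CPM, Krt71 at 2.20 CPM and Krt28 at 1.34 CPM. Krt71 was highest in N-3, at 4.19 CPM, and Krt28 in N-7, at 2.08 CPM. Krt31, Krt39, Krt75, Krt83 and Krt87 stayed under 1 CPM in every tumor, and so did Krt222 except in N-17 (1.44 CPM). Of the 55 keratin symbols of the reference list, 19 were not in the deposited table, and their highest count in any tumor was 57, for Krt32.

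Markers of hair follicle and skin were read beside the keratins. Of 15 listed, 8 were in the table, and their summed level was 190.7 to 443 CPM in the SCC tumors, 104 CPM in R-12, 29.98 CPM in N-1, 21.4 CPM in N-9 and 15.3 CPM in N-7. In SCC against CAC 2 of the 5 tested were called by edgeR as higher in SCC, against 1.37% of all genes called in either direction. They were Foxn1, which is on the list of regulators as well, and Crym. Both passed the filter only through the SCC tumors, with at most 2 and 4 counts in the CAC tumors, and neither was called without R-16. Crym was at most 0.522 CPM in SCC and higher, at 0.569 CPM, in R-2. Most of the sum was Padi3, an enzyme that modifies arginine in hair proteins, at 168, 425 and 207 CPM in R-6, R-13 and R-14, respectively, and 99.2 CPM in R-12. Tchh, the trichohyalin of the inner root sheath, was at 22.9 CPM in N-1, 9.93 CPM in R-6, 7.98 CPM in R-13, 2.67 CPM in R-14 and 2.36 CPM in N-9. The hair shaft protein gene Krtap3-2 was under 0.3 CPM in every tumor and at 0 in N-9, R-12 and R-13. The part of skin or hair follicle in the levels of these tumors was not tested.

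Partner chains were compared over the 21 tumors as correlations of log2 CPM, for 6 pairs with permutation p-values of 100000 resamples and Benjamini-Hochberg adjustment over the pairs. Krt8 and Krt18 had a Pearson's r of 0.91 and a Spearman's rho of 0.88, each with an adjusted permutation p of 3e-05, where 1e-05 is the smallest unadjusted p the resamples can give. The r was 0.85 without the 2 tumors farthest from the median of Krt8 and 0.94 within the controls.

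Krt6a and Krt16 had an r of 0.93 and a rho of 0.90 (adjusted permutation p = 3e-05 for each), and an r of 0.90 without the 2 farthest tumors. The tumors fell into sets with high and low Krt6a, and with a cut of 5 CPM, chosen after seeing the data, r was 0.69 in the 9 tumors above it (adjusted permutation p = 0.155) and 0.49 in the 12 others (adjusted permutation p = 0.163). Krt6b and Krt17 had an r and a rho of 0.73 (adjusted permutation p = 0.00052 and 0.00076), and within the sets r was 0.36 over 7 tumors and 0.43 over 14, with adjusted permutation p-values of 0.447 and 0.163. Each set was cut on the first gene of the pair, which narrows its range. Within the cohorts r for Krt6a and Krt16 was 0.85 in the controls (adjusted permutation p = 0.0215) and 0.97 in the RhoC tumors (adjusted permutation p = 6e-05). For Krt6b and Krt17 it was 0.56 in the controls (adjusted permutation p = 0.179) and 0.81 in the RhoC tumors (adjusted permutation p = 0.00198).

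Krt1 and Krt10 had an r of 0.58 (adjusted permutation p = 0.0193) and a rho of 0.31 (adjusted permutation p = 0.212). It rested on N-1 and N-9, without which r was -0.13. Krt4 and Krt13 had an r of 0.47 (adjusted permutation p = 0.0336) and a rho of 0.42 (adjusted permutation p = 0.0842), and r was 0.33 without N-9 and R-14. With 1 mean per mouse over the 17 mice, an alternative chosen after seeing the data, r for Krt4 and Krt13 was 0.17 (adjusted permutation p = 0.62), and with a prior count of 0.5 the adjusted permutation p over the tumors was 0.0684. Krt7 and Krt19 had an r of 0.21 (adjusted permutation p = 0.354). Over all members per length, the ratio of summed type I to type II FPKM had a median of 1.33, from 0.678 in R-12 to 19.1 in N-7, where Krt19 was high. With Krt5 and Krt14 included the ratio in R-12 was 1.16, and the lowest was 0.773 in N-15.

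**Figure D5:**
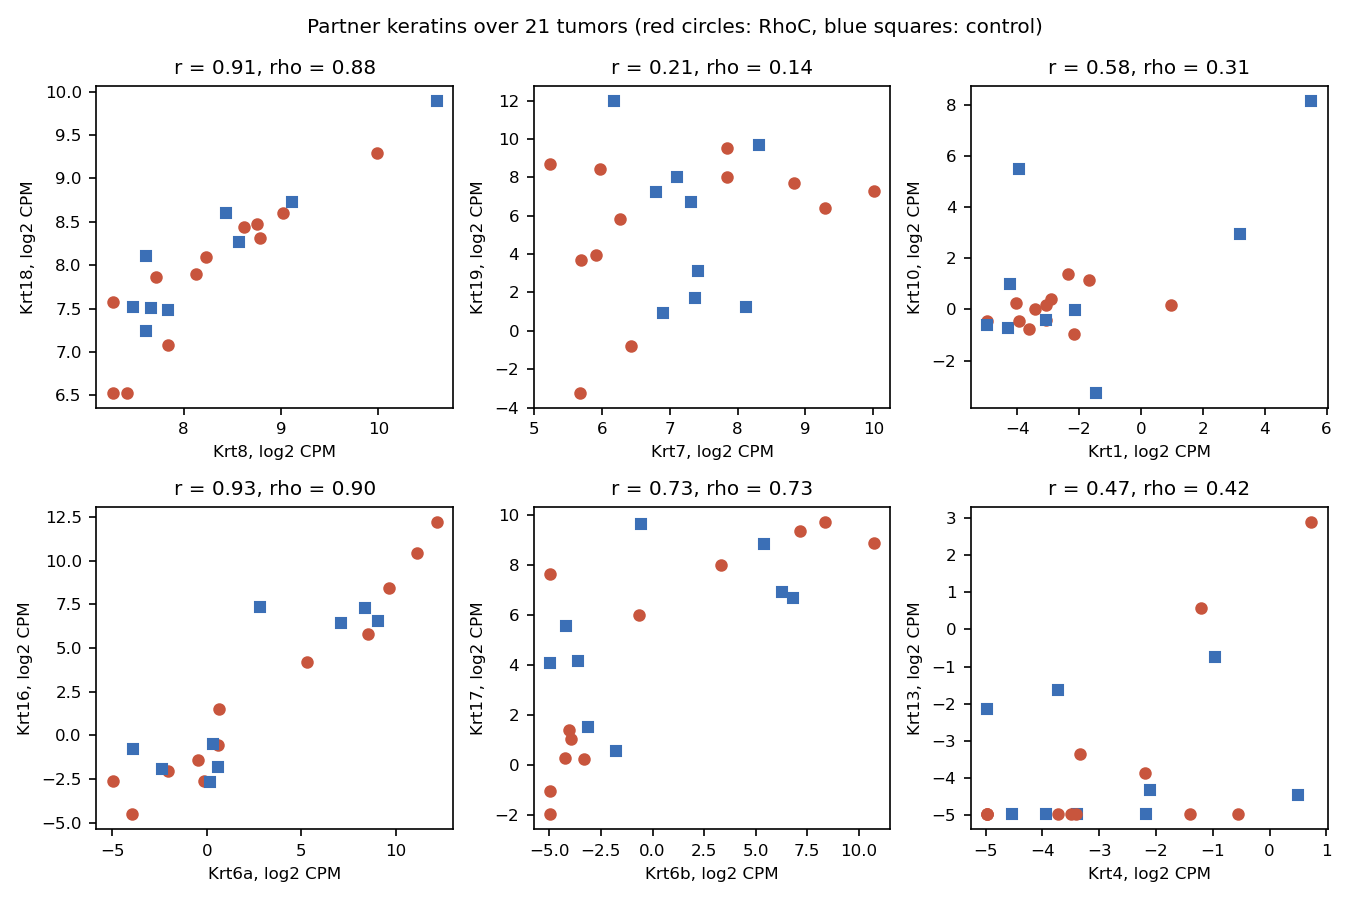
Each point is 1 of 21 tumors (red circles: RhoC, blue squares: control), with log2 CPM (prior count 2) of the type II chain on the x axis and of the type I chain on the y axis for the 6 pairs. Krt8 with Krt18 formed an even line, Krt6a with Krt16 lay in a high and a low set, and N-1 stood apart for Krt1 with Krt10.

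Genes that anchor keratins or act with them were counted in the same tests. Of 10 tested genes of the cornified envelope, the cross-linked shell of dying squamous cells, 4 were called higher in SCC than in CAC by edgeR (1.37% of all genes were called in either direction), with 8 at an unadjusted p under 0.05 (9.26% of all genes). The 4 were Krtdap (log2 ratio 10.16, adjusted p = 0.0278), Sprr1b (9.90, adjusted p = 0.0278), Sprr1a (8.28, adjusted p = 0.0251) and Sbsn (5.11, adjusted p = 0.0251), and the median over the 10 was 5.82. Krtdap and Sprr1b were among the 5 of the 10 that passed the filter only through the SCC tumors. Without R-16, where 5 genes were called in all, 0 of the 10 were called and the lowest adjusted p was 0.0839 (Sbsn, edgeR), with 7 at an unadjusted p under 0.05 as higher. In the comparison of the cohorts 0 of 7 tested were called (0.223% of all genes) and 1 was higher at an unadjusted p under 0.05 (10.5%, edgeR). Between PDA and SNC 0 of 9 were called (0.00965% of all genes) and 2 were lower at that level (4.68%).

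Of 15 tested regulators of epithelial fate, 1 was called in SCC against CAC, Foxn1, a transcription factor of hair and differentiating skin (log2 ratio 9.29, adjusted p = 0.0236, edgeR), and 8 had an unadjusted p under 0.05, all as higher, against 9.26% of all genes. Foxn1 had at most 2 counts in the CAC tumors and passed the filter only through the SCC tumors, and its adjusted p was 0.0843 without R-16. The median over the list was 1.98, and Trp63, the p63 transcription factor of basal cells, had a log2 ratio of 2.93 (adjusted p = 0.316, edgeR). Of 14 genes of filament attachment at desmosomes and hemidesmosomes, none was called by edgeR in SCC against CAC, with 6 higher and 1 lower at an unadjusted p under 0.05 (9.26% and 10.1% of all genes), among them the plaque proteins Pkp3 (log2 ratio 1.80, adjusted p = 0.0584) and Evpl (4.05, adjusted p = 0.0780). Between the cohorts 4 of the 14 were higher and 1 was lower at that level, against 10.5% and 9.93% of all genes, Dst among them with a log2 ratio of 1.21 (adjusted p = 0.0688, edgeR). Between PDA and SNC 1 of the 13 tested was higher and 1 lower at that level, against 6.34% and 4.68% of all genes, and their median was 0.55. The lower was Jup, the plakoglobin of the desmosome, with a log2 ratio of -4.19 (adjusted p = 0.111, edgeR). The higher was Dsp, with 2.02 (adjusted p = 0.384, edgeR).

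As sums, markers of other cell types overlapped between SCC and CAC, while single markers differed. At an unadjusted p under 0.05 (edgeR) 4 of 12 luminal markers were higher and 1 was lower in SCC. Of 9 mesenchymal markers 1 was higher and 2 were lower, against 9.26% and 10.1% of all genes. Of 5 leukocyte markers 0 were higher and 1 was lower, Cd3e, which passed the filter only through the CAC tumors. The leukocyte markers summed to 197 to 263 CPM in SCC and 219 to 420 CPM in CAC, the mesenchymal markers to 3196 to 11385 CPM and 2580 to 14215 CPM, and the luminal markers to 1753 to 4334 CPM and 1341 to 3597 CPM. The myoepithelial markers summed to 435 to 979 CPM in SCC and 186 to 648 CPM in CAC. Most of that sum in SCC was Trp63, which basal cells also express, at 867, 477 and 338 CPM in R-6, R-13 and R-14. Without Trp63 the sum was 96.8 to 224 CPM in SCC and 178 to 376 CPM in CAC, and by edgeR 0 of the 7 myoepithelial markers were higher and 3 lower (Myh11, Oxtr and Mylk) at an unadjusted p under 0.05 (9.26% and 10.1% of all genes), with a median log2 ratio of -0.64. R-12 was the highest CAC tumor for the mesenchymal sum and for the myoepithelial sum with and without Trp63. Skeletal muscle markers summed to 3834 CPM in N-17 and 563 CPM in R-10, and the part of muscle in those tumors was not tested.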

How the data were processed

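RNA of 21 tumors (Qiagen RNeasy, Illumina stranded total RNA with ribosomal depletion, NovaSeq) was processed by the authors. Per the submitters' processing notes and methods, they used FastQC 0.11.5, Trim Galore 0.5.0, STAR 2.6.0c, HTSeq 0.6.1p2 and GRCm38.p6. The authors deposited HTSeq counts per gene for each tumor, not normalized, and a table with FPKM per gene and tumor, normalized to gene length and depth by the authors. The annotation release and the strand setting of the counting are not given in the sources used here. The deposited table also holds the authors' fold changes and p-values between cohorts, which were not used.

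Counts were scaled by TMM and tested over all genes that passed filterByExpr with edgeR 4.0.16 (glmQLFit, glmQLFTest; R 4.3.3) and Benjamini-Hochberg adjustment at 0.05, without covariates. SEs were derived from the F statistic, as the absolute log2 ratio over the root of F. Log2 CPM used a prior count of 2. Cohorts came from the sample labels, and histology from the study's supplementary table. Alternatives used DESeq2 1.42.0 (the authors' tool), limma 3.58.1 (voom with mouse as a random effect, correlation 0.27), library-size scaling, no filter, other tumor sets and each tumor left out. Tests were run on simulated data first. Permutation p-values came from scipy 1.17.1 and are two-sided. Tumors of 1 mouse are not independent, and nothing in the labels names other shared sources.

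Simple, stratified and hair classes, partner pairs and gene lists were chosen with earlier results of these data known. Named were all simple keratins, the partner pairs, Krt15, in each class the 2 members with the highest mean CPM, and any member called. Other members named as highest in a tumor or as passing an unadjusted p were chosen after their values were seen. Shared 100-base stretches were counted in GENCODE transcripts, in which 33 of the 34 members had the position of the files. Every column of values was mapped to a tumor.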

Additional observations from a re-analysis of the deposited data

Results flagged for a closer look

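Among 51 groups of 4 to 10 tumors in which a keratin reached 1 CPM and was tested for a tumor apart from the rest by Dixon's gap ratio, 8 held such a tumor. Chance gives about 1 in 20 groups where they are taken without regard to their values, a rate that does not hold here, since a group with 1 high tumor could enter through that tumor alone. Among the 9 controls, Krt27 was at 450 CPM in N-9 (next 1.78 CPM) and Krt78 at 2.12 CPM in N-1 (next 0.195 CPM). Among the 4 RhoC tumors listed as CAC, R-12 stood apart for Krt6a (363 CPM, next 1.48 CPM), Krt6b (9.99 CPM, next 0.0691 CPM) and Krt17 (257 CPM, next 2.62 CPM). Among the 4 controls listed as PDA, N-15 stood apart for Krt16 (93.5 CPM, next 0.681 CPM) and Krt42 (2.05 CPM, next 0.0332 CPM), and N-6 was lowest for Krt23 (0.614 CPM, next 28.7 CPM).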

How the results depend on the processing

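Of 604 alternative fits of the 29 log2 fold changes given above, 553 kept direction and side of the threshold, 22 passed it only in the alternative and 29 turned sign, 7 of them among 377 fits that left out 1 tumor. The keratins called numbered 0 in each comparison with edgeR. With DESeq2 they numbered 2 between cohorts, 5 between SCC and CAC and 3 between PDA and SNC. They numbered 1 with the Gata4(loxP/+) controls alone (2.22% of all genes called), 1 with N-4 added to CAC and 6 with the mice N9255 and P497 as a block, an alternative chosen after seeing the data. Leaving out 1 tumor gave 0 to 1 between cohorts, 0 to 5 between SCC and CAC and 0 to 0 between PDA and SNC. Partner pairs called by r numbered 5 over all tumors, 3 without the 2 farthest tumors, 4 with 1 mean per mouse (Krt4 with Krt13 was lost), 4 with a prior count of 0.5, 4 within the RhoC tumors and 2 within the controls. By rho they numbered 3 in each of these except within the controls, where they numbered 0. Within the controls r was -0.31 for Krt7 with Krt19, and r for Krt1 with Krt10 was -0.13 without the 2 farthest.

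Between cohorts, log2 fold changes turned sign as follows. With DESeq2 they were 0.21 for Krt19 and 0.35 for Krt15, and with library sizes -0.0082 for Krt17. With counts summed by mouse Krt17 was at -0.53, and without mouse P497 at -0.59. With voom they were -0.36 for Krt7, -0.47 for Krt6a, -1.40 for Krt6b, -0.79 for Krt16 and -1.90 for Krt17. With the Gata4(loxP/+) controls alone they were 0.40 for Krt8, 0.11 for Krt18 and -0.0032 for Krt17. Without the SCC tumors they were -0.26 for Krt7, -1.31 for Krt6a, -2.70 for Krt16 and -1.58 for Krt17. With tumor number as a replicate block they were -3.03 for Krt6a, -6.22 for Krt6b, -4.60 for Krt16 and -4.41 for Krt17, and without the block in the same tumors -1.43 for Krt17, chosen after seeing the data. The cause was not tested. The range over fits without 1 tumor held both signs for Krt1 (PDA over SNC, -6.01 to 1.996) and, between cohorts, for Krt15 (-2.80 to 0.27), Krt17 (-0.22 to 1.11), Krt18 (-0.48 to 0.072), Krt19 (-2.10 to 0.18) and Krt8 (-0.51 to 0.33).

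Tumor numbers name tumors and do not pair cohorts: the deviations of tumors with the same number correlated at -0.237, -0.185, -0.00294 and 0.0217, and the block called 0 members and 0 genes, as did the fit of those tumors without it. Over all genes, calls numbered 43 between cohorts with edgeR, against 1452 with DESeq2, 14 without N-9, 346 without N-15, 438 with the Gata4(loxP/+) controls alone and 3 each with counts summed by mouse, with voom and mouse as a random effect and without mouse P497, 263 between SCC and CAC (2232 with DESeq2, 5 without R-16, 827 without R-12, and 0 without mouse P497, a fit with 1 SCC tumor, R-6, assumed to vary like the CAC tumors) and 2 between PDA and SNC (754 with DESeq2, 30 without the filter). Group sizes of 2 to 4 tumors, shared mice and sequence shared by Krt6a and Krt6b limit the comparisons, and levels under 1 CPM rest on fewer than about 100 counts.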
